A study of Mus musculus with 6 samples.

Results

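The retinoic acid (RA) response was described in mouse embryonic stem cells in which the coactivator Carm1 had been knocked down. The cells were the J1 line of strain 129S4/SvJae carrying a short hairpin RNA (shRNA) against Carm1, and 1 library of cells treated with 1 µM RA for 48 h was set against 1 library of cells given the ethanol vehicle for the same time. The comparison used 2 of the 6 libraries. By their labels, the other libraries were the same pair of treatments in J1 cells with a scramble shRNA and in wild-type J1 cells. All cultures grew on gelatin in embryonic stem cell medium with the cytokine LIF. The Carm1 knockdown was represented by a single shRNA line, so the effect of the knockdown and other properties of that line cannot be told apart. Of 20460 genes with a usable row, 11233 had a mean of at least 1 FPKM (fragments mapped to a gene, scaled to transcript length and to library depth) over the 2 libraries and were described. With 1 library per treatment in this line there is no replicate check, and genes are called by size alone: at least 2-fold, that is a difference of at least 1 on the log2(FPKM + 1) scale, RA minus vehicle. This scale understates the change of genes below about 1 FPKM.

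RA is a vitamin A derivative that enters the nucleus and binds the retinoic acid receptors, which sit on DNA as partners of the retinoid X receptors and exchange corepressors for coactivators when the ligand binds. Its best known targets are genes of its own metabolism and the Hox genes, which give cells their position along the body axis. In embryonic stem cells RA drives exit from pluripotency. CARM1, also called PRMT4, is an arginine methyltransferase that is recruited with p160 coactivators to nuclear receptors and methylates histone H3 and other coactivators. The series asked what CARM1 does in this response.

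Carm1 itself was low in the knockdown line under both treatments. Carm1 had 6.73 FPKM with RA and 8.49 FPKM with vehicle in the knockdown line, against 29.9 and 36.1 FPKM in scramble cells and 29.5 and 37.0 FPKM in wild-type cells. Both values of the knockdown line lie below all 4 control values, and its RA response of -0.30 was close to the -0.27 of the scramble line and the -0.32 of the wild-type line. Values summed to 505264 to 537543 FPKM per library, and the spacing of the lowest values corresponded to about 24300000 to 34100000 reads. In the Carm1 shRNA line 11 of 12 embryonic stem cell markers reached 1 FPKM under both treatments, with summed levels of 4359 FPKM with RA and 5773 FPKM with vehicle. Markers of extraembryonic endoderm summed to 526 FPKM with RA and 246 FPKM with vehicle (11 and 7 of 18 at 1 FPKM or more, Afp at 0), and neural markers to 430 and 369 FPKM (7 of 12 under both, Neurog2 at 0). Fibroblast markers summed to 18.1 FPKM with RA and 2.54 FPKM with vehicle (3 and 1 of 10 at 1 FPKM or more, Postn at 0), trophoblast markers to 44.5 and 11.1 FPKM (4 of 9 under both, Elf5 and Tpbpa at 0), mesendoderm markers to 7.68 and 4.72 FPKM (3 and 1 of 8), and blood markers to 1.03 and 3.06 FPKM (Ptprc, Hbb-b1 and Lyz2 at 0). In bulk RNA, more cells of a type and more RNA per cell cannot be told apart.

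In the Carm1 shRNA line 1093 genes (9.73% of those kept) were at least 2-fold higher with RA and 200 (1.78%) were at least 2-fold lower. The other 9940 genes (88.5%) changed by less. The calls leaned to the higher side at every size, with 236 genes higher and 16 lower by at least 4-fold, and 22 higher and 0 lower by at least 16-fold. The median response of all genes was 0.11, and 58.5% of genes lay above 0. That median depended on how the libraries were scaled against each other: median-of-ratios scaling moved it to -0.0017 and quantile normalization to -0.06, and under the second of these the calls were 715 higher and 373 lower, so that 65.7% of calls were higher in place of 84.5%.

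The higher genes came mostly from low vehicle levels. Their median was 8.59 FPKM with RA and 1.94 FPKM with vehicle, and 381 of the 1093 (34.9%) had less than 1 FPKM in the vehicle library. The lower genes were well expressed before treatment and were mostly still detected afterwards, with a median of 6.39 FPKM with RA and 18.3 FPKM with vehicle, and 25 of 200 under 1 FPKM with RA. The share of higher calls fell with the mean level, being 18.2% among 2773 genes at 1 to 5 FPKM, 9.88% among 4250 genes at 5 to 20 FPKM, 4.15% among 3350 genes at 20 to 100 FPKM and 3.26% among 860 genes at 100 FPKM or more. The share of lower calls was 1.63% to 1.84% in those bins. Summed over genes, the higher genes held 27139 FPKM with RA and 8383 FPKM with vehicle, and the lower genes 3852 FPKM with RA and 10026 FPKM with vehicle.

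**Figure D1:**
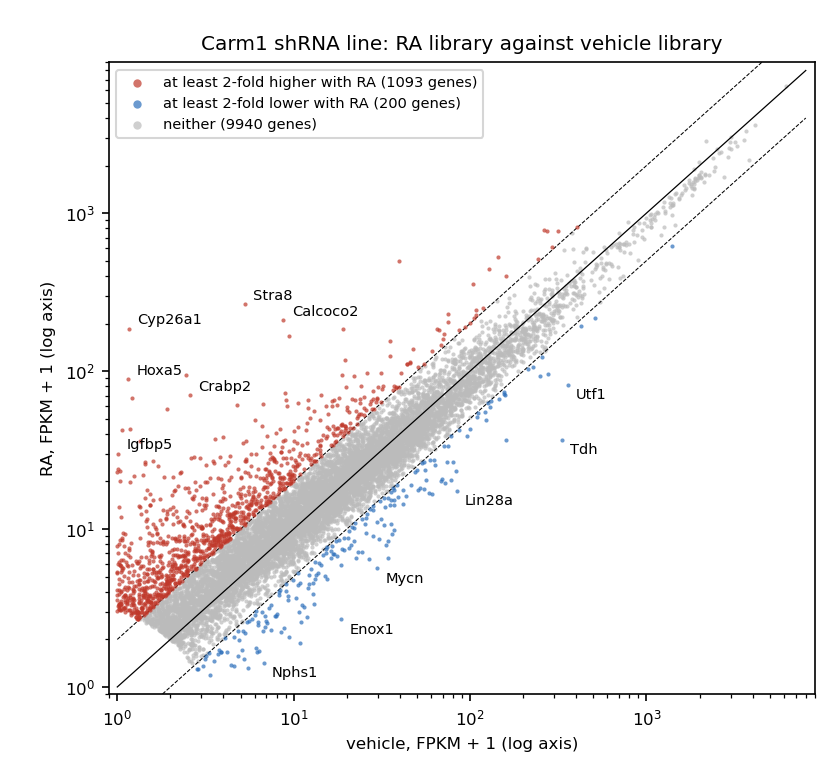
Level of each of the 11233 genes in the Carm1 shRNA line, with the RA library on the y axis and the vehicle library on the x axis (FPKM + 1, both axes log). Each point is 1 gene, the solid line marks equal levels and the dashed lines 2-fold; the 1093 higher genes lie mostly at the left, where vehicle levels were low, and the 200 lower genes at higher vehicle levels.

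The largest rise in the Carm1 shRNA line was that of Cyp26a1, the cytochrome P450 that breaks down RA, with 185 FPKM with RA and 0.158 FPKM with vehicle (7.32 on the log2 scale). Hoxa5 followed with 87.8 FPKM with RA and 0.148 FPKM with vehicle (6.27), and Zfp703, a zinc finger corepressor, with 66.3 and 0.207 FPKM (5.80). Stra8, the RA-induced gene needed for entry into meiosis, had 266 FPKM with RA and 4.29 FPKM with vehicle (5.66). Of the 15 genes with the largest rises, 7 were Hox genes, among them Hoxa5, Hoxb2, Hoxa3, Hoxb1, Hoxb6 and Hoxb8.

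The rest of these 15 genes had varied roles. The myelin protein gene Pmp22 had 56.6 FPKM with RA and 0.911 FPKM with vehicle, Igfbp5, a secreted binding protein of insulin-like growth factors, 29.0 and 0.0100 FPKM, and Crabp2, which carries RA to its receptors, 69.6 and 1.57 FPKM. The lens crystallin gene Crygc had 35.0 FPKM with RA and 0.350 FPKM with vehicle. Calcoco2, an autophagy receptor gene, had 210 FPKM with RA and 7.75 FPKM with vehicle (4.59) and was second to Stra8 in RA level among the 15.

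The largest fall was that of Tdh, the threonine dehydrogenase on which mouse embryonic stem cells depend, with 35.8 FPKM with RA and 329 FPKM with vehicle (-3.17). Pluripotency and growth genes stood beside it: Mycn had 4.64 FPKM with RA and 28.8 FPKM with vehicle (-2.40), Lin28a, the RNA-binding repressor of let-7 maturation, 16.5 and 82.9 FPKM (-2.26), Utf1 80.9 and 356 FPKM (-2.12), and the G1 kinase gene Cdk6 1.77 and 11 FPKM (-2.11). Cell surface genes were also among the 15, with Cdh3 (P-cadherin) at 7.38 FPKM with RA and 33.5 FPKM with vehicle, Mcam at 5.49 and 25.7 FPKM, and the nephrin family genes Nphs1 at 0.423 and 5.75 FPKM and Kirrel2 at 0.309 and 4.53 FPKM. The others were Enox1 (-2.80), the acetylcholine receptor subunit Chrna9 (-2.52), N4bp3 (-2.39), the annexin partner S100a10 (-2.13), Pdzd4 (-2.07) and the 14-3-3 protein gene Sfn (-1.95).

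**Figure D2:**
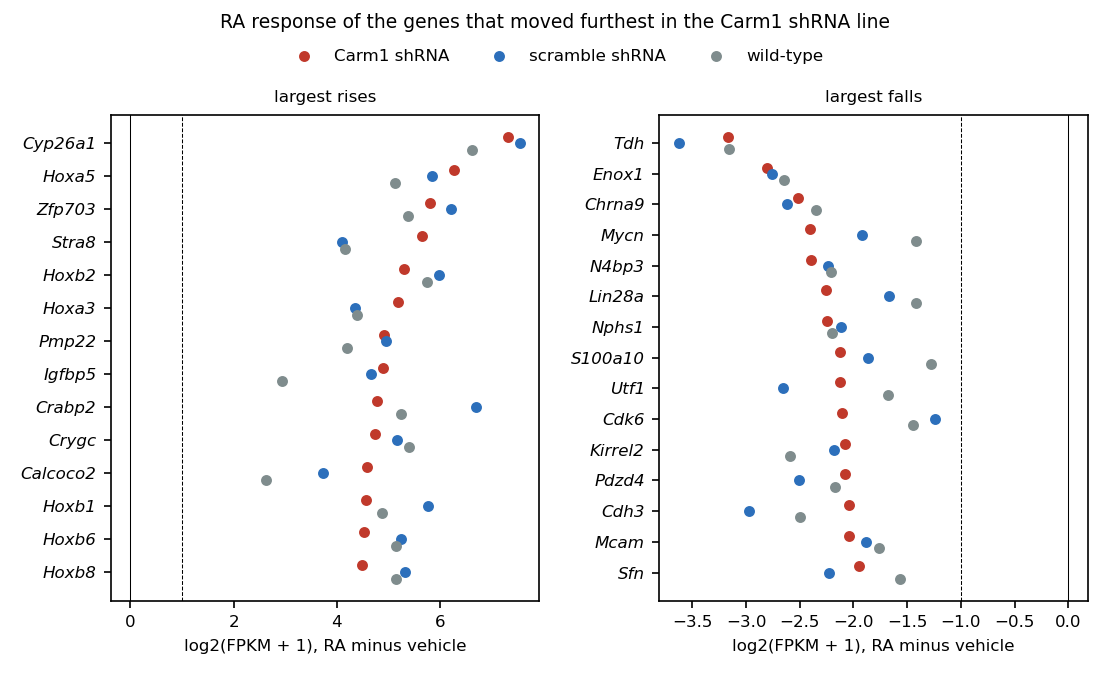
RA response (log2(FPKM + 1), RA minus vehicle) of 14 of the 15 genes with the largest rises and the 15 with the largest falls in the Carm1 shRNA line, shown for the Carm1 shRNA, scramble and wild-type lines; each point is 1 pair of libraries and the dashed line marks 2-fold. All genes shown are past 2-fold in the same direction in all 3 lines, and Stra8 (5.66, against 4.10 and 4.16) lies well to the right of both control lines.

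Close to the limits, genes that were called and genes that were not had nearly the same response. Just inside the 2-fold limit were Brdt (2.19 FPKM with RA, 0.593 FPKM with vehicle), Erc2 (6.70 and 2.84 FPKM) and Esyt3 (7.70 and 3.34 FPKM), and just outside were B4galt4 (4.51 and 1.76 FPKM), Mmp16 (1.69 and 0.348 FPKM) and Abhd3 (2.82 and 0.913 FPKM). On the lower side Cd34 (1.03 FPKM with RA, 3.06 FPKM with vehicle), Lck (3.50 and 8.01 FPKM) and Hspbap1 (13 and 27.1 FPKM) were just inside, and Pfas (17.7 and 36.3 FPKM), Tdgf1 (272 and 542 FPKM) and Stmn3 (3.79 and 8.53 FPKM) just outside. At the level filter the nearest genes kept were Hist3h2a, Thy1 and Nccrp1 (mean 1.00 FPKM each), and the nearest left out were Scn3b, Lnx1 and Pcdhga3 (mean 0.9997, 0.998 and 0.997 FPKM). The 6 most abundant genes of each library stayed inside 2-fold. Eef1a1, the translation elongation factor, had 6425 FPKM with RA and 6218 FPKM with vehicle. Ptma, at 2153 and 3812 FPKM (-0.82), had the largest response among these genes.

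Genes of retinoid metabolism and signalling rose or stayed inside the limit. Of 33 such genes listed, 23 were kept, and 14 of these rose and 0 fell, beside 9.73% and 1.78% of all genes, with a median of 1.74 beside 0.11. Some of those that rose, among them Cyp26a1, Cyp26b1, Cyp26c1, Stra6 and Rarb, passed the level filter through the RA library. The other 10 genes stayed under the filter, and 0 of these passed 2-fold, so the count and median describe the kept genes only. Of the RA clearance genes, next to Cyp26a1, Cyp26c1 rose to 2.80 FPKM with RA, against 0.0995 FPKM with vehicle, and Cyp26b1 to 2.29 FPKM, against 0.0209 FPKM. Dhrs3, which reduces retinal back to retinol, had 48.2 FPKM with RA and 5.05 FPKM with vehicle (3.02). Stra6, the receptor that takes up retinol, had 19.1 and 0.0297 FPKM (4.29), the retinol carrier gene Rbp4 had a response of 1.74, and the corepressor Nrip1 had 17.7 FPKM with RA and 1.93 FPKM with vehicle (2.68).

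The receptors themselves split. Rarb, the receptor gene that is itself an RA target, rose to 14.7 FPKM with RA, against 0.435 FPKM with vehicle (3.45). Rara had 28.2 FPKM with RA and 30.7 FPKM with vehicle (-0.12), Rarg 65.6 and 77.3 FPKM (-0.23), Rxra 5.61 and 4.56 FPKM (0.25) and Rxrb 21.6 and 27.8 FPKM (-0.35), all inside the 2-fold limit. Crabp1 (10.5 and 12.9 FPKM) and Rdh10, which makes retinal from retinol (4.59 and 3.24 FPKM), were also inside it.

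The promoters of Cyp26a1 and Rarb carry a classic RA receptor site within the window from 250 bases before to 50 bases after the start, and they are shown because both genes are textbook RA targets of this kind. The site searched, called DR5, is a direct repeat of the receptor half-site (AGGTCA and close variants) with 5 bases between the copies, on both strands, and the capitals mark it. The sequences are RefSeq's on build GRCm38.p6, given 5′ to 3′ along the gene, Cyp26a1 from chr19:37697558-37697857 (plus strand) and Rarb from chr14:16575427-16575726 (minus strand).
Cyp26a1: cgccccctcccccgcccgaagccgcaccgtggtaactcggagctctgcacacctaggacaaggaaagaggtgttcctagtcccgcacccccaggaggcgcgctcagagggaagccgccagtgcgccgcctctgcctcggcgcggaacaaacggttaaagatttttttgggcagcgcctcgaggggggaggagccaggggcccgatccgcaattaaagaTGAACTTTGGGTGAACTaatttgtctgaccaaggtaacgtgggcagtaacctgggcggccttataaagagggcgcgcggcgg
Rarb: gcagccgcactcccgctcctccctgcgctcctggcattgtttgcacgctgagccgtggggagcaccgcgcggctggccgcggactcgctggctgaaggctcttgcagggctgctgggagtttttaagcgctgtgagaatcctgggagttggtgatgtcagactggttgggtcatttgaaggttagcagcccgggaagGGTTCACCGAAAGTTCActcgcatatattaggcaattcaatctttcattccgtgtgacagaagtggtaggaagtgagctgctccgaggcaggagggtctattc
The site lies 32 to 16 bases before the start in Cyp26a1, where it reads on the opposite strand, and 53 to 37 bases before it in Rarb. It was found in 32 of 32851 promoters (0.0974%). Among genes matched by symbol it was in 2 of 797 that rose, in 0 of 139 that fell and in 4 of 8502 that were kept, the others being Blvrb and Syndig1, which were not called. With 2 bases between the copies, 88 promoters (0.268%) held the repeat, among them those of Ano1 and Tinagl1 of the genes that rose (2 of 797, 0.251%, beside 10 of 8502 kept, 0.118%). With 1 base between them it was 73 promoters (0.222%), with 1 of 797 genes that rose (0.125%) and 24 of 8502 kept (0.282%). Sequence outside this window was not searched.

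Hox genes had the highest share of higher calls and the highest median of the classes listed. Of 39 Hox genes listed, 20 were kept, and 19 of these rose and 0 fell (95% and 0%, beside 9.73% and 1.78% of all genes). Their summed level was 442 FPKM with RA and 6.95 FPKM with vehicle. Those kept passed the level filter mainly through the RA library, so this count describes the induced genes only; 19 Hox genes stayed under the filter. In the Hoxa cluster Hoxa3 had 42.2 FPKM with RA and 0.182 FPKM with vehicle (5.19) and Hoxa4 25.4 and 0.431 FPKM (4.21), while Hoxa9 reached 2.07 FPKM with RA and Hoxa10 3.63 FPKM. In the Hoxb cluster Hoxb2 had 41.3 FPKM with RA and 0.0658 FPKM with vehicle (5.31), Hoxb1 23.2 and 0.0158 FPKM (4.57), Hoxb8 22.2 and 0.0310 FPKM (4.49), and Hoxb6 had 22.1 FPKM with RA and was listed at 0 with vehicle. Hoxd13 was the kept Hox gene that did not pass the limit (1.07 and 0.956 FPKM). The labels do not describe strand-specific counting, so reads of Hox genes and of transcripts antisense to them cannot be told apart.

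TALE homeobox proteins include DNA-binding partners of Hox proteins, and 6 of the 13 TALE genes kept rose (46.2%, beside 9.73% of all genes) with 0 lower (median 0.98). Meis2 had 13 FPKM with RA and 0.324 FPKM with vehicle (3.40) and Meis1 6.83 and 0.0912 FPKM (2.84), both of which passed the level filter through the RA library. Irx3, Pknox2 and Meis3 rose by 2.81, 2.22 and 1.19. Pbx2, with 40.5 FPKM with RA, stopped just short of the limit at 0.98, and the repressor Tgif1 had 131 FPKM with RA and 182 FPKM with vehicle. Among 46 homeobox genes outside the Hox clusters, a class that includes the TALE genes, 18 rose and 5 fell (39.1% and 10.9%, beside 9.73% and 1.78% of all genes). Cdx1, a caudal factor that acts upstream of Hox genes, had 64.5 FPKM with RA and 8.10 FPKM with vehicle (2.85), whereas Pou4f2 had 8.83 and 36.2 FPKM (-1.92), Nkx6-2 2.86 and 11.8 FPKM (-1.73) and En2 1.29 and 6.47 FPKM (-1.71).

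The RA responses of Hox genes differed between lines in a way that depended on the cluster. All 10 Hoxb genes tested over the 6 libraries had a smaller RA response in the Carm1 shRNA line than in either control line, where 39.6% of all genes and 30.2% of genes at least 2-fold higher in both controls did so. The Hoxb median response was 3.71 in the knockdown line, against 4.20 in scramble cells and 4.25 in wild-type cells. The deficit from the control mean was 0.43 to 0.93, and the RA level of the knockdown line was the lowest of the 3 at all 10 genes: Hoxb1 had 23.2 FPKM with RA in the knockdown line, against 53.3 FPKM in scramble cells and 29.3 FPKM in wild-type cells, Hoxb8 had 22.2, against 41.5 and 38.8 FPKM, and Hoxb3 had 6.09, against 14.1 and 10.5 FPKM. The 2 Hoxc genes that passed the level filter over the 6 libraries were also lowest in the knockdown line, with Hoxc4 at 1.91 FPKM with RA in the knockdown line, against 9.28 and 4.63 FPKM in the scramble and wild-type lines.

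The Hoxa genes did not share this order of responses. Their RA level was still the lowest of the lines in the knockdown line at Hoxa2, Hoxa4, Hoxa6, Hoxa9, Hoxa10 and Hoxa11. It was not the lowest at Hoxa3, Hoxa5 and Hoxa7. Hoxa4 had 25.4 FPKM with RA in the knockdown line, against 43.9 FPKM in scramble cells and 28.8 FPKM in wild-type cells. At Hoxa6 the levels were close (4.25 FPKM, against 4.34 and 5.19 FPKM). Of the 9 genes from Hoxa2 to Hoxa11 in the comparison 1 (Hoxa2) was below both controls, 3 were above both and 5 lay between them. Their median was 2.39 in the knockdown line, against 2.85 in scramble cells and 2.32 in wild-type cells. Hoxa11, among the 5, passed the filter through the wild-type line (2.77 FPKM with RA, 2.92 FPKM with vehicle). It was near 0 in the knockdown line (0.0661 and 0.0876 FPKM) and in scramble cells (0.113 and 0.0745 FPKM). Hoxa9 and Hoxa10, also among the 5, had wild-type vehicle levels of 0.968 and 6.91 FPKM. Those levels were 0.0345 and 0.160 FPKM in the knockdown line and 0.0235 and 0.212 FPKM in scramble cells. The larger responses of Hoxa3 and Hoxa5 came with lower vehicle levels: Hoxa3 had 0.182 FPKM with vehicle in the knockdown line, against 1.24 FPKM in scramble cells and 0.542 FPKM in wild-type cells, while its RA levels were 42.2 FPKM, against 44.6 and 31.6 FPKM. None of these differences passed limma's interaction test (adjusted p = 0.9996 for Hoxb2, Hoxb3, Hoxb8 and Hoxa3 alike). In that test 9 of 10 Hoxb genes and 1 of these 9 Hoxa genes had an unadjusted p under 0.05, beside 3.64% of all genes. Induced genes had such values more often, with 109 of the 646 genes at least 2-fold higher in both controls. Neighbouring Hox genes are not independent of each other, and this order was looked at after the values had been seen.

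**Figure D3:**
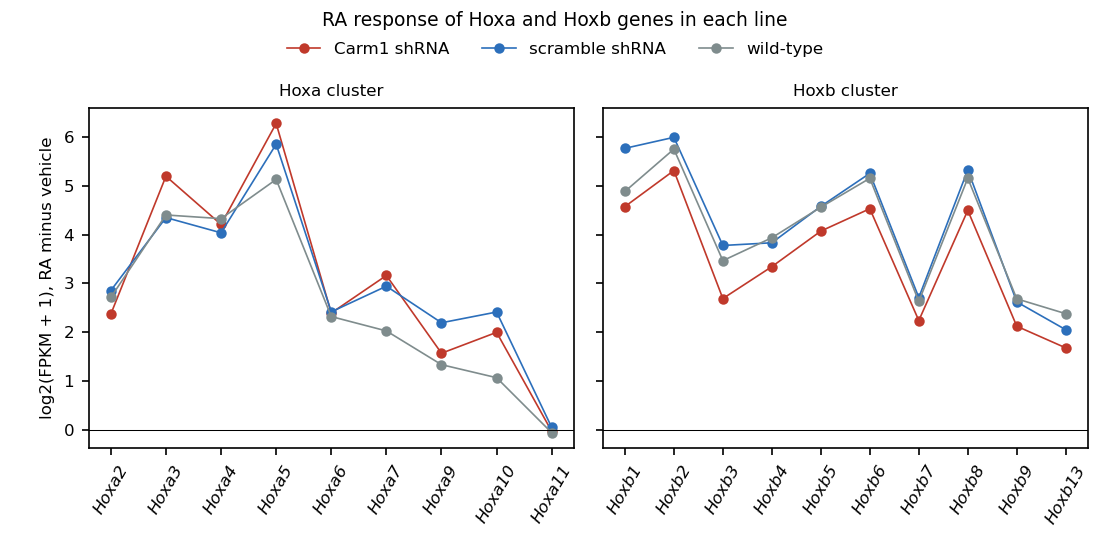
RA response (log2(FPKM + 1), RA minus vehicle) of Hoxa2 to Hoxa11 and the Hoxb genes, in order of gene number, for the Carm1 shRNA, scramble and wild-type lines; each point is 1 pair of libraries. The Carm1 shRNA line is lowest at all 10 Hoxb genes, and in Hoxa it is above both control lines at 3 genes and below both at 1.

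Pluripotency genes moved the other way, but only part of the network passed the limit. Of 32 naive and general pluripotency genes kept, 6 fell and 1 rose (18.8% and 3.13%, beside 1.78% and 9.73% of all genes), with a median of -0.56. The genes that fell were Tdh, Lin28a, Utf1, the methylcytosine dioxygenase Tet1 (17.1 FPKM with RA, 51.1 FPKM with vehicle), Tcl1 (16.6 and 49.4 FPKM) and Mybl2 (105 and 228 FPKM). The core factors stayed inside 2-fold: Pou5f1 had 725 FPKM with RA and 1206 FPKM with vehicle (-0.73), Sox2 157 and 238 FPKM (-0.60), and Nanog 595 and 456 FPKM (0.38). Esrrb (128 and 231 FPKM) and Zfp42 (388 and 708 FPKM) were also lower without passing the limit, while Klf2 (104 and 98.6 FPKM) and Tfcp2l1 (137 and 118 FPKM) were level. Cdh1, E-cadherin, was the member that rose (159 FPKM with RA, 69.4 FPKM with vehicle).

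Of 16 genes of the formative and primed states, 4 fell and 2 rose (25% and 12.5%, beside 1.78% and 9.73% of all genes), with a median of -0.30. The rises were near the share of all genes. Foxd3 had 9.74 FPKM with RA and 34.8 FPKM with vehicle (-1.74), Dnmt3l 4.31 and 12.8 FPKM (-1.38), Fgf15 2.57 and 8.29 FPKM (-1.38) and Pou3f1 1.58 and 5.25 FPKM (-1.28). Sall2 and Sox4 rose, to 14.0 and 42.6 FPKM with RA, against 2.81 and 16.9 FPKM with vehicle.

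Genes of extraembryonic endoderm, the lineage that forms the yolk sac, rose in 11 of 13 kept cases and fell in 1 (median 2.19). These were 84.6% and 7.69%, beside 9.73% and 1.78% of all genes. A further 15 genes of the list stayed under the level filter. The kept members had a median of 5.18 FPKM with RA and 0.387 FPKM with vehicle, so most passed the filter through the RA library, and the count describes the induced genes only. The transcription factors reached low levels: Gata6 had 5.34 FPKM with RA and 0.0821 FPKM with vehicle (2.55), Foxa1 4.36 and 0.171 FPKM (2.19) and Foxq1 4.82 and 0.0548 FPKM (2.46). Secreted and endocytic products included Plat at 7.84 FPKM with RA and 0.0681 FPKM with vehicle, Dab2 at 4.82 and 0.669 FPKM and Sparc at 217 and 105 FPKM. Apoe was the member that fell (16.8 and 53.8 FPKM, -1.62).

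Basement membrane genes rose in 10 of 20 cases (50%, beside 9.73% of all genes) with 0 lower (median 1.00). Serpinh1, the collagen chaperone, had 184 FPKM with RA and 18 FPKM with vehicle (3.28), and the type IV collagen chains Col4a1 and Col4a2 had 64.2 and 24.4 FPKM with RA, against 11 and 3.09 FPKM with vehicle. Epithelial genes rose in 9 of 27 cases and fell in 1 (33.3% and 3.70%, beside 9.73% and 1.78% of all genes). The desmosomal gene Dsp had 16.1 FPKM with RA and 1.54 FPKM with vehicle (2.75), and the simple epithelial keratins Krt18 and Krt8 had 11.4 and 24.0 FPKM with RA, against 1.07 and 4.75 FPKM with vehicle. Cdh3 fell while Cdh2, N-cadherin, rose to 5.57 FPKM with RA, against 1.74 FPKM with vehicle. The summed extraembryonic endoderm, trophoblast and fibroblast markers were all higher with RA, as given above, and the part of any admixed cells in these changes was not tested.

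Growth factor pathways changed in both directions. In the FGF and ERK list 8 of 41 genes fell and 6 rose (median -0.16), beside 1.78% and 9.73% of all genes. The feedback inhibitors Spry4 (19.3 FPKM with RA, 77.0 FPKM with vehicle) and Spry2 (25.6 and 79.2 FPKM) fell, as did the immediate early gene Egr1 (1.22 and 7.53 FPKM), Myc (25.5 and 73.3 FPKM) and the ligands Fgf17, Fgf15, Fgf18 and Fgf10. Receptor genes rose, with Fgfr2 at 4.88 FPKM with RA and 0.207 FPKM with vehicle (2.28), Fgfr1 at 65.5 and 27.1 FPKM (1.24) and Fgfr4 at 2.15 and 0.374 FPKM (1.20).

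In the BMP list 6 of 27 genes rose and 1 fell (22.2% and 3.70%, beside 9.73% and 1.78% of all genes), with a median of 0.62. Targets of the pathway rose: Msx2 had 27.5 FPKM with RA and 1.72 FPKM with vehicle (3.39), Id2 154 and 34 FPKM (2.14), the inhibitor Smad6 6.14 and 0.583 FPKM (2.17) and Id1 172 and 70.6 FPKM (1.27). The ligand Bmp4 fell to 13.1 FPKM with RA, against 35.9 FPKM with vehicle (-1.39). In the Wnt list 10 of 33 rose and 2 fell (30.3% and 6.06%, beside 9.73% and 1.78% of all genes), with a median of 0.50. These included the receptors Fzd2 (8.20 FPKM with RA, 0.577 FPKM with vehicle) and Fzd4 (4.79 and 1.29 FPKM) and the secreted antagonist Sfrp5 (27.0 and 1.62 FPKM), whereas Axin2, the feedback target of the canonical pathway, fell (1.25 and 3.86 FPKM). In the Nodal list 2 of 18 rose and 2 fell (11.1% each), the rises being near the share of all genes. Lefty2, the Nodal antagonist, had 47.8 FPKM with RA and 122 FPKM with vehicle (-1.33) and Gdf1 1.40 and 5.87 FPKM, while the protease gene Furin rose to 10.9 FPKM with RA, against 3.51 FPKM with vehicle.

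Germ cell and meiosis genes rose in 5 of 24 cases (20.8%, beside 9.73% of all genes) with 0 lower (median 0.63). Besides Stra8 these were the meiotic cohesin gene Rec8 (23 FPKM with RA, 3.84 FPKM with vehicle), Taf7l (3.47 and 0.333 FPKM), Mael, which acts in piRNA silencing (11.5 and 3.59 FPKM), and the RNA-binding gene Dazl (6.39 and 1.84 FPKM).

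Neural genes moved in both directions. Of 20 kept, 3 rose (15%) and 2 fell (10%), beside 9.73% and 1.78% of all genes, with a median of -0.11. Gap43, a growth cone protein gene, had 123 FPKM with RA and 34.2 FPKM with vehicle, Nes 5.23 and 1.52 FPKM and Dpysl3 21 and 9.05 FPKM, whereas Tubb3 (117 and 128 FPKM) and Stmn2 (167 and 190 FPKM) did not pass the limit. Sox11 had 2.93 FPKM with RA and 3.94 FPKM with vehicle (-0.33), against responses of 0.82 and 0.61 in the scramble and wild-type lines. The 10 SOX genes kept had a median of -0.03 in the knockdown line, against 0.39 in scramble cells and 0.85 in wild-type cells; the interaction test called none of them.

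Axon guidance ligands and receptors rose in 15 of 42 cases and fell in 1 (35.7% and 2.38%, beside 9.73% and 1.78% of all genes), with a median of 0.65. Rgma, a repulsive cue and BMP coreceptor, had 20.2 FPKM with RA and 0.844 FPKM with vehicle (3.53), the semaphorin receptor Plxna2 15.4 and 1.05 FPKM (3.01), the ephrin Efnb1 25.8 and 2.48 FPKM (2.95) and the netrin receptor Unc5b 12 and 1.48 FPKM (2.39). Both neuropilins rose, Nrp2 to 13.3 FPKM and Nrp1 to 4.13 FPKM, against 1.91 and 0.317 FPKM with vehicle. Sema5b was the gene that fell (3.78 and 8.89 FPKM).

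Lysosomal genes rose in 14 of 57 cases (24.6%, beside 9.73% of all genes) with 0 lower. Of the 57, 52 lay above 0, beside 58.5% of all genes (median 0.52). With the filter over the 6 libraries, 14 of 57 rose in the knockdown line, 17 in scramble cells and 2 in wild-type cells. The medians were 0.52, 0.62 and 0.26. Of all genes 9.49%, 11.4% and 6.22% rose in those lines. The cathepsins Ctsb and Ctsl had 64.5 and 145 FPKM with RA, against 15.9 and 67.0 FPKM with vehicle, the saposin precursor Psap had 181 and 65.4 FPKM, and the membrane protein gene Lamp2 had 28.6 and 11.1 FPKM. Of 28 autophagy genes 4 rose (14.3%, beside 9.73% of all genes) and 0 fell: Ulk2 (4.52 FPKM with RA, 0.753 FPKM with vehicle), Atg16l2 (4.66 and 0.802 FPKM), the cargo receptor Sqstm1 (110 and 42.8 FPKM) and Wipi1 (9.33 and 3.54 FPKM). Tfeb, the transcription factor that drives lysosomal genes, had 7.85 FPKM with RA and 16.2 FPKM with vehicle (-0.96).

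Ribosome biogenesis genes shifted down together by a small amount. Only 4 of 67 fell (5.97%, beside 1.78% of all genes) and 1 rose, yet 65 of them lay below 0 and the median was -0.54, or -0.66 with median-of-ratios scaling and -0.52 with quantile normalization. The 4 were Rrp1b (25.5 FPKM with RA, 53.9 FPKM with vehicle), Utp14a (14.0 and 29.9 FPKM), nucleostemin Gnl3 (63.5 and 131 FPKM) and Nhp2 (103 and 211 FPKM), and Nol3, listed with them by name pattern, rose. Aminoacyl-tRNA synthetases (0 of 37 called, median -0.34), mitochondrial ribosomal proteins (0 of 76, -0.29), DNA replication genes (1 higher and 1 lower of 48, -0.36) and splicing factors (1 higher of 71, -0.28) were shifted less. The median of 81 cytosolic ribosomal protein genes was -0.24, and -0.02 under quantile normalization.

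**Figure D4:**
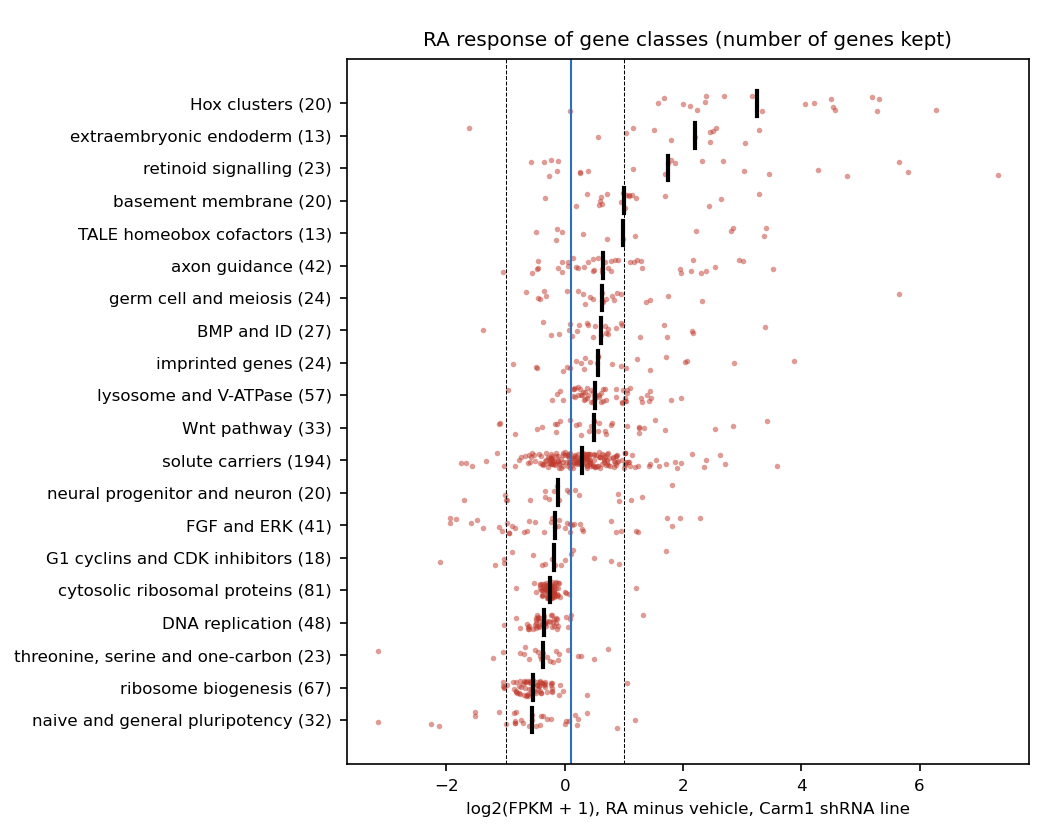
RA response in the knockdown line (log2(FPKM + 1), RA minus vehicle) of the genes of 20 classes, with the number of genes kept in parentheses. Each point is 1 gene, black bars are class medians, the blue line is the median of all genes (0.11) and dashed lines mark 2-fold; Hox genes (median 3.25) are furthest right and naive and general pluripotency genes (median -0.56) furthest left.

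Cell cycle and growth regulators changed as well. Among 18 G1 cyclins, kinases and inhibitors 4 fell (22.2%, beside 1.78% of all genes) and 1 rose: Cdk6, Ccnd1 (26.5 FPKM with RA, 61.5 FPKM with vehicle), Ccne1 (53.4 and 110 FPKM) and Ccnd2 (12.4 and 26.2 FPKM) fell, and the inhibitor Cdkn1c rose to 15.6 FPKM, against 4.04 FPKM. In the MYC network 2 of 13 genes rose and 2 fell (15.4% each, beside 9.73% and 1.78% of all genes). Mycn and Myc fell, while Mxd4, a MAX partner that represses, rose to 14.3 FPKM with RA, against 2.20 FPKM with vehicle. Mycl1 rose to 5.44 FPKM, against 2.09 FPKM. Besides Tdh, the one-carbon genes Shmt1 (42.2 and 98.7 FPKM) and Cbs (6.43 and 14.3 FPKM) fell, 3 of 23 in all with 0 higher. Of 37 glycolysis and hypoxia genes 3 rose and 1 fell (8.11% and 2.70%), near the shares of all genes. Pdk1 fell to 18.4 FPKM with RA, against 70.9 FPKM with vehicle (-1.89). Pdk3, which encodes another pyruvate dehydrogenase kinase, rose to 44.5 FPKM, against 17.8 FPKM, as did the glucose transporter Slc2a3 (820 and 404 FPKM) and Vegfa (26.8 and 10.1 FPKM).

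Imprinted genes rose in 8 of 24 cases (33.3%, beside 9.73% of all genes) with 0 lower (median 0.55). Dlk1 had 23.9 FPKM with RA and 0.693 FPKM with vehicle (3.88), Sgce 17.1 and 1.51 FPKM (2.85) and Peg10 203 and 73.7 FPKM (1.45). Of 194 solute carrier genes 27 rose and 6 fell (13.9% and 3.09%, near the shares of all genes), the largest change being that of Slc35g2 (16.7 and 0.471 FPKM, 3.58). The 309 Zfp zinc finger genes had 4 higher and 6 lower members (1.29% and 1.94%, beside 9.73% and 1.78% of all genes). The falls were near the share of all genes.

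Nuclear receptor coactivators, among which CARM1 works, changed little. The p160 coactivator genes Ncoa1 (5.88 FPKM with RA, 4.59 FPKM with vehicle), Ncoa2 (13.8 and 8.19 FPKM) and Ncoa3 (54.1 and 46.4 FPKM) and the acetyltransferase genes Ep300 (23.1 and 24.0 FPKM) and Crebbp (11.8 and 10.1 FPKM) stayed inside 2-fold. Of 33 coregulators 3 rose (9.09%, near the 9.73% of all genes): Nrip1, the chromatin remodeller Smarca2 (2.48 and 0.142 FPKM) and Ncoa7 (8.21 and 3.12 FPKM). Of 14 genes of the arginine methyltransferase list 2 rose (14.3%, beside 9.73% of all genes), Prmt8 (10.3 and 2.93 FPKM) and Prmt2 (14.1 and 4.4 FPKM). Prmt1, the most abundant, had 340 FPKM with RA and 396 FPKM with vehicle. Of 31 Polycomb genes 4 rose and 1 fell (12.9% and 3.23%, near the 9.73% and 1.78% of all genes). Among these subunits Cbx8 (3.75 and 0.333 FPKM), Bmi1 (4.19 and 1.35 FPKM) and Scmh1 (7.71 and 2.74 FPKM) rose and Cbx7, the subunit typical of stem cells, fell (14.2 and 36.3 FPKM).

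The response of the Carm1 shRNA line was then set beside that of the control lines over the 11227 genes that averaged 1 FPKM or more in the 6 libraries. There 1065 genes were higher and 200 lower in the knockdown line (9.49% and 1.78%), 1280 and 212 in scramble cells (11.4% and 1.89%) and 698 and 138 in wild-type cells (6.22% and 1.23%). By size of response the Carm1 shRNA line thus lay between the 2 controls. Of 646 genes at least 2-fold higher in both controls, 586 (90.7%) were so in the Carm1 shRNA line too, with a median of 1.70 there and 1.61 in the mean of the controls. Of 104 genes lower in both controls, 90 (86.5%) were lower in the Carm1 shRNA line, and Fgf4 was the single gene of these not below 0. The scramble line in the same role held 96.7% and 89.1%, and the wild-type line 62.7% and 61.2%.

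Most genes called in the Carm1 shRNA line also responded in libraries that had no part in the call. Of the 1093 higher genes 1055 could be tested in the 2 control lines alone with limma, and 1035 (98.1%) were higher there at an adjusted p under 0.05, beside 35.1% of all genes. Of the 200 lower genes 199 were tested and 194 (97.5%) were lower, beside 13.4% of all genes. By the 2-fold rule fewer passed, with 54.8% of those higher genes and 44.7% of those lower genes past 2-fold in both controls. In the limma fit over all 3 lines, which includes the Carm1 shRNA libraries, 42.9% of genes were higher and 20.7% lower. The median response of the higher genes was 1.46 in the Carm1 shRNA line, 1.49 in scramble cells and 1.08 in wild-type cells, and that of the lower genes was -1.28, -1.25 and -1.0. Across genes, which are not independent replicates, the response of the Carm1 shRNA line correlated with that of the scramble line at r = 0.943 and with that of the wild-type line at r = 0.892, and the 2 controls correlated with each other at r = 0.918.

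The difference in response itself was tested with an interaction term in limma, and 0 of 11227 genes were higher and 0 lower in the Carm1 shRNA line at an adjusted p of 0.05 (smallest adjusted p = 0.9996). At an unadjusted p under 0.05 there were 409 genes (3.64%). A limma fit with an intensity trend called 1 gene, Stra8 (adjusted p = 0.019). The test had 1 residual degree of freedom, from the difference between the control lines, so a miss does not show that the lines responded alike. The wild-type line also differed in level from both shRNA lines at some genes. Ddx3y had 5.02 FPKM with RA and 5.55 FPKM with vehicle in wild-type cells. Its values were 0.00774 and 0 FPKM in scramble cells and 0 and 0.0169 FPKM in the knockdown line. Eif2s3y had 35.8 FPKM with RA in wild-type cells, against 1.40 FPKM in scramble cells and 0.132 FPKM in the knockdown line. The effect of such differences on the comparison of lines was not tested.

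By size alone, 10 genes (0.0891%) responded above both controls by at least 1 log2 unit and 7 (0.0623%) below both. The same rule gave 7 (0.0623%) and 1 (0.00891%) with the scramble line in that place, and 12 (0.107%) and 51 (0.454%) with the wild-type line. Each control was then set against the other control and the Carm1 shRNA line, so these are not counts between the controls alone. Both counts of the Carm1 shRNA line lay between those of the other lines. These 17 genes are described here by their values.

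Several of the 10 genes above both controls were higher after RA in the Carm1 shRNA line. Msx2 had 27.5 FPKM with RA and 1.72 FPKM with vehicle in the knockdown line (3.39), against 12 and 1.82 FPKM in scramble cells (2.21) and 5.31 and 2.01 FPKM in wild-type cells (1.07). Hnf4a, the nuclear receptor of visceral endoderm and liver, had 5.18 FPKM with RA and 0.122 FPKM with vehicle in the knockdown line, against 1.60 and 0.0416 FPKM in scramble cells and 0.559 and 0.0452 FPKM in wild-type cells. Vehicle levels of both genes were low in all 3 lines, and their RA levels had the order Carm1 shRNA, scramble, wild-type. The steroid enzyme gene Akr1c18 (4.4 FPKM with RA in the knockdown line, against 0.900 and 0.475 FPKM), the monooxygenase gene Fmo1 (5.16, against 1.70 and 1.24 FPKM), Lbh (4.01, against 1.81 and 1.23 FPKM), Prss35 (10.5, against 4.57 and 3.18 FPKM) and the relaxin gene Rln1 (2.96, against 1.88 and 0.897 FPKM) had the same order.

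Stra8 and Fgf4 differed in other ways. Stra8 had 266 FPKM with RA and 4.29 FPKM with vehicle in the knockdown line, against 580 and 32.8 FPKM in scramble cells and 437 and 23.4 FPKM in wild-type cells, so both of its levels were below those of the controls and the vehicle level more so. Its interaction estimate was 1.52 ± 0.17 (SE). Fgf4, the autocrine growth factor of embryonic stem cells, had 46.4 FPKM with RA and 46.3 FPKM with vehicle in the knockdown line, against 18.6 and 39.1 FPKM in scramble cells and 15.8 and 41.4 FPKM in wild-type cells. Its vehicle levels were alike and its RA level was more than that of either control. Phlda2, an imprinted growth regulator, had 9.78 and 18.8 FPKM in the knockdown line (-0.87), against 3.64 and 19.4 FPKM in scramble cells (-2.13) and 6.91 and 42.7 FPKM in wild-type cells (-2.47).

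Among the 7 genes below both controls, Cyp26b1 stands beside Cyp26a1 as an RA-degrading enzyme gene but behaved differently. Cyp26b1 reached 2.29 FPKM with RA in the knockdown line, against 15.2 FPKM in scramble cells and 11.3 FPKM in wild-type cells, and vehicle levels were 0.0209 FPKM, against 0.0272 FPKM and a value listed at 0. Cyp26a1 responses were 7.32 in the knockdown line, against 7.55 and 6.63 in the controls. The interaction estimate of Cyp26b1 was -2.11 ± 0.21 (SE) with an adjusted p of 0.9996. Crabp2 (4.78, against 6.70 and 5.24), Stra6 (4.29, against 5.34 and 4.47) and Dhrs3 (3.02, against 3.69 and 3.44) were lower than both controls by less than 1 against at least one of them, while Tgm2 (1.86, against 1.40 and 0.24) and Rbp4 (1.74, against 1.20 and 1.10) were above both.

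Ccnd2, the D-type cyclin gene, had the largest difference of all genes tested. It had 12.4 FPKM with RA and 26.2 FPKM with vehicle in the knockdown line (-1.02), against 15.8 and 7.59 FPKM in scramble cells (0.96) and 38.2 and 12.1 FPKM in wild-type cells (1.58). The vehicle level was higher than in either control and the RA level lower than in both. Tdg, the DNA glycosylase gene that acts in demethylation and binds RA receptors, had 9.16 FPKM with RA and 15.2 FPKM with vehicle in the knockdown line, against 18.9 and 9.93 FPKM in scramble cells and 11.3 and 7.05 FPKM in wild-type cells. Arrdc2 had 4.39 and 8.05 FPKM, against 23.6 and 8.29 FPKM and 11.9 and 7.28 FPKM, and the heparan sulfate proteoglycan gene Gpc3 had 9.90 and 12.1 FPKM, against 22.1 and 10.8 FPKM and 16.2 and 7.34 FPKM. For these 4 genes the control lines both responded upwards and the Carm1 shRNA line did not. The complement gene C3 (0.205 FPKM with RA, against 2.89 and 6.05 FPKM) and Tmem132e (1.35 FPKM, against 3.95 and 4.32 FPKM) responded less than both controls from vehicle levels near 0.

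**Figure D5:**
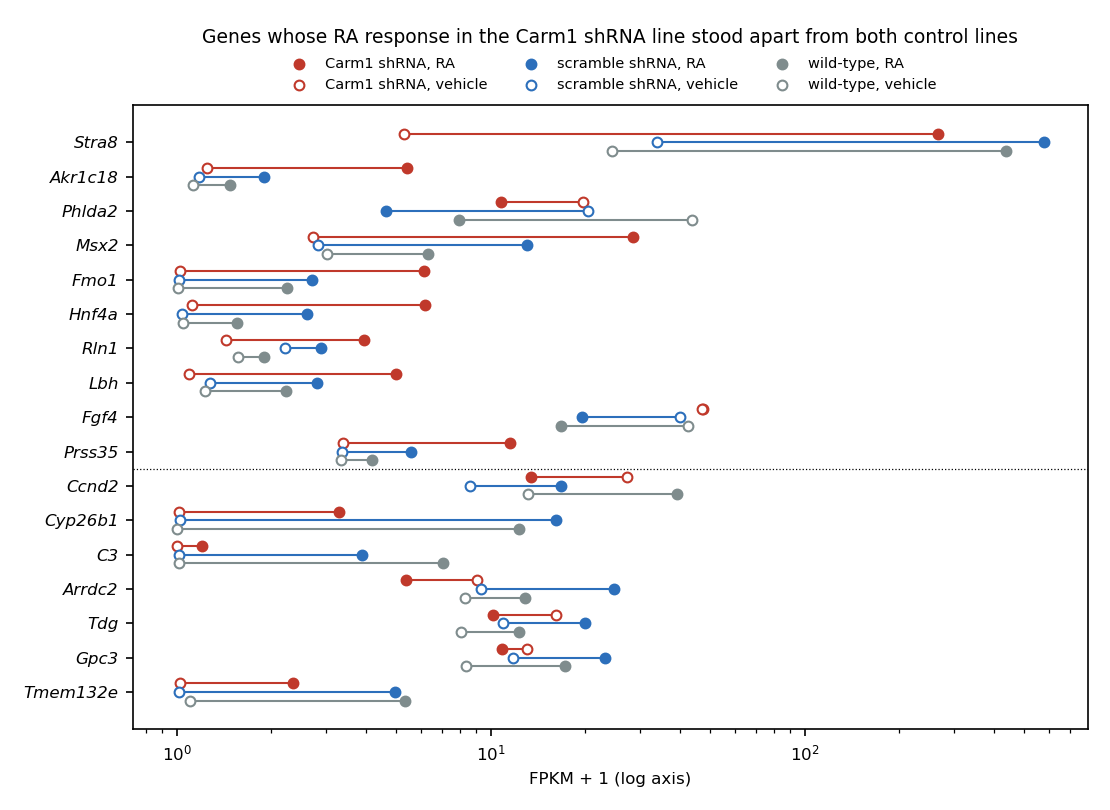
Level (FPKM + 1, log axis) of the 17 genes whose RA response in the Carm1 shRNA line differed from both control lines by at least 1 log2 unit, 10 above both (upper rows) and 7 below both (under the dotted line). Filled points are RA libraries, open points vehicle libraries, and colours are lines; in Ccnd2, Arrdc2, Tdg and Gpc3 the filled point of the Carm1 shRNA line lies left of its open point while those of both control lines lie right.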

How the data were processed

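RNA of 6 libraries was read as single-end 51-nucleotide reads, per the labels' protocols. The deposited values are FPKM computed by the authors using TopHat2 and Cufflinks and build mm9, per the submitters' processing notes; no source used here gives tool versions or any scaling between libraries. The labels name no replicate cultures, and p-values therefore cover the spread among these 6 libraries alone. The deposited table held 20793 rows. Rows with a failed estimate (2) were dropped, and repeated symbols (519 rows) were represented by their highest row. The filter was a mean of 1 FPKM or more, over 2 libraries for the Carm1 shRNA line and over 6 for comparisons of lines. FPKM carry no counts, and depth was read from the step of low values.

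Differences are of log2(FPKM + 1). limma 3.58.1 in R 4.3.3 fitted line plus treatment, with the line as block, or an interaction of treatment with the Carm1 shRNA line (threshold 0.05, Benjamini-Hochberg over all genes), and was tested on simulated data. Named genes were the 15 largest rises and falls, the genes at least 1 log2 unit from both controls, list members with the largest responses or a textbook role, and those nearest the limits; clones, accessions and small RNAs were not named. Gene lists, members and rules were chosen with earlier results of these data known, and 2 symbol patterns were corrected after the table was seen. Alternatives were a pseudocount of 0.1, median-of-ratios and quantile scaling, other filters and fold limits, summed repeats, no block, an intensity trend and leaving out each line. A few genes are not reported here by name; they remain in the counts, except that the Hoxa comparison covers Hoxa2 to Hoxa11.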

Additional observations from a re-analysis of the deposited data

Results flagged for a closer look

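Of the 17 genes at least 1 log2 unit from both controls, 5 had an RA response in the Carm1 shRNA line of the opposite sign to that of both control lines; genes with smaller differences, such as Sox11, were not listed for this. These were Ccnd2 (-1.02, against 0.96 in the scramble line and 1.58 in the wild-type line), Arrdc2 (-0.75, against 1.41 and 0.64), Tdg (-0.67, against 0.87 and 0.62), Gpc3 (-0.27, against 0.97 and 1.05) and Fgf4 (0.0045, against -1.03 and -1.33). The sign of the Fgf4 value is not firm, since it was -0.12 after median-of-ratios scaling. Each line gave 1 response, and in limma's interaction test the adjusted p of all 5 was 0.9996. Of the 5, the vehicle level of Ccnd2, Tdg, Gpc3 and Fgf4 was higher in the Carm1 shRNA line than in either control.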

How the results depend on the processing

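In the Carm1 shRNA line the calls were 1093 higher and 200 lower. Quantile normalization gave 715 and 373, a 1.5-fold limit 2409 and 762, a 4-fold limit 236 and 16, and a mean of at least 5 FPKM 587 higher. The median response of 0.11 became -0.0017 with median-of-ratios scaling, -0.062 with quantile normalization, 0.015 with no filter and 0.042 with a mean of at least 5 FPKM. Genes past 1 log2 unit from both controls (10 above, 7 below) became 30 and 34 with a pseudocount of 0.1 and 4 and 4 at 5 FPKM or more, and 16 above with quantile normalization. Against 1 control line alone there were 14 to 133 above and 31 to 39 below. All 10 Hoxb genes stayed below both controls under both scalings, and 9 did so with a pseudocount of 0.1; this check was chosen after seeing the data.

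Over the 3 lines limma called 4816 genes higher and 2325 lower. It called 3631 lower with median-of-ratios scaling and 3031 higher and 3827 lower with quantile normalization, so the share of calls that were higher was 67.4%, 50.2% and 44.2%. Leaving out 1 line gave 3405 to 4693 higher and 1390 to 2295 lower. The line served as the replicate block, since each line was measured under both treatments; without the block the calls were 3964 and 1735, and the interaction stayed at 0 and 0. The intensity trend gave 1 interaction call, higher. The cause of these differences was not tested. Of 66 named responses none with a size past 2-fold changed sign under the alternatives run, and 32 moved by more than the spread between lines with a pseudocount of 0.1. Depth limits low genes most, since a vehicle level under 0.1 FPKM, found in 63 of the 1093 higher genes, rests on few reads.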

Other observations

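Genes beside the Hoxb cluster (chromosome 11, build mm9) differed in their RA response in the Carm1 shRNA line. Calcoco2, 82399 bases from the nearest Hoxb gene at 95960230 to 95973276, had 210 FPKM with RA and 7.75 FPKM with vehicle and a response of 4.59, against 3.74 in scramble cells and 2.63 in wild-type cells, so that the knockdown line was the highest of the 3 here and the lowest at the Hoxb genes. Ttll6, a tubulin ligase gene 28909 bases away, had 6.37 FPKM with RA and 1.05 FPKM with vehicle (1.85, against 1.58 and 1.15). Atp5g1, 118667 bases away and on the far side of Calcoco2, had 300.0 FPKM with RA and 339 FPKM with vehicle (-0.17). Copz2, at 481623 bases on the other side, had 5.26 FPKM with RA and 0.333 FPKM with vehicle (2.23, against 2.51 and 2.17).

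A few further genes with known roles are given by their values; they were picked after the values had been seen and form no list. B2m, the light chain of class I molecules, had 58.9 FPKM with RA and 8.21 FPKM with vehicle in the knockdown line (2.70, against 2.59 in scramble cells and 0.80 in wild-type cells), and Ifitm1 had 136 and 46.7 FPKM (1.52, against 1.15 and 0.04). In both genes the response of the 2 shRNA lines was larger than that of the wild-type line. The metallothionein genes Mt1 and Mt2 fell, to 9.78 and 19.1 FPKM with RA, against 24.4 and 67.2 FPKM with vehicle. The heat shock gene Hspb8 had 27.9 FPKM with RA and 3.35 FPKM with vehicle (2.73, against 2.35 and 1.13), and Gadd45g, a growth arrest gene, 16.7 and 1.13 FPKM (3.05).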
